A study of Mus musculus with 6 samples.

Results

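The lysosome and autophagy genes described here are 47 named genes, chosen by role: 26 hydrolases, 3 luminal helper proteins, 7 membrane proteins, 5 subunits of the proton pump and 6 autophagy factors. A gene was read where a probe set of the array named it alone, and from the brightest such probe set over all 6 arrays. That found 46 of the 47 among 18193 genes on the array; Cd63 was not analysed here. All 46 were bright enough to be tested, which required log2 4 or more on at least 3 arrays and left 10531 genes in all. The arrays hold total RNA of mouse neural stem cells whose Spot14 status was read from green fluorescent protein (GFP): 3 replicates of Spot14 GFP positive cells and 3 of Spot14 GFP negative cells, called biological replicates by the submitters. Thrsp encodes Spot14, which is known from tissues that make fat, and both groups carry the reporter label in their description. Strain, age, culture conditions and the way the cells were separated are not given in the sources used here, nor whether replicates came from separate animals or cultures, so that p-values measure the spread between these samples.

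Lysosomes are acidic compartments in which soluble hydrolases break down proteins, sugars, lipids and sulfated molecules. A proton pump, the V-ATPase, keeps them acidic, heavily glycosylated membrane proteins line them, and autophagy delivers parts of the cell's own cytoplasm to them. The transcription factor TFEB binds a short palindrome in the promoters of many such genes. In adult neural stem cells lysosomes are known to be prominent in the quiescent state, where they take up protein aggregates.

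That palindrome can be seen in the promoters of these genes. RefSeq promoter windows of GRCm38.p6, from 250 bases before to 50 bases after a start site, were at hand for 42 of the 47 genes; Ctsb, Ctsh, Asah1, Npc1 and Atp6v1h had no entry. The motif GTCACGTG, on either strand, stood in a window of 11 of these 42 genes (26.2%), against 689 of 27025 genes (2.55%) over the whole table. Its central letters CACGTG, which every such match contains, stood in 15 of 42 (35.7%), against 8.09% of all genes, and the full palindrome GTCACGTGAC only in the window of Cln3, against 0.37% of all genes. Of the 11 genes 7 encode hydrolases (Arsa, Naglu, Sgsh, Gla, Glb1, Ctsa and Ctsd), 3 membrane proteins (Lamp1, Mcoln1 and Cln3) and 1 a pump subunit (Atp6v0d1). No window of the 6 autophagy factors held CACGTG. A match is a description of letters, not a binding site. The motif was already known from the promoters of many such genes, so its share among them is no test of TFEB. The windows below are shown because they carry the motif in genes that span the range of differences described later; each lies upstream of the start site and is read on the strand of its gene, and capitals mark CACGTG with adjoining letters that continue the palindrome.
Arsa, chr15:89477425-89477460, minus strand: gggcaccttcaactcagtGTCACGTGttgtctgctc
Naglu, chr11:101070001-101070046, plus strand: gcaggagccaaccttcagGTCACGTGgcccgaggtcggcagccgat
Cln3, chr7:126583332-126583405, minus strand: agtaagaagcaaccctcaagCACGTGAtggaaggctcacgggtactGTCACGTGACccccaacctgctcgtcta
Ctsd, chr7:142387900-142387945, minus strand: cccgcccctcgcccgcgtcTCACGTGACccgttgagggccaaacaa
Lamp1, chr8:13159080-13159160, plus strand: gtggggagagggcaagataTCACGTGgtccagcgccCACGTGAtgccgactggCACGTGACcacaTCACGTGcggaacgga
Mcoln1, chr8:3500428-3500499, plus strand: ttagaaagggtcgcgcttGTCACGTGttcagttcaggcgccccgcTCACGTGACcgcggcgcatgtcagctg
Glb1, chr9:114401010-114401055, plus strand: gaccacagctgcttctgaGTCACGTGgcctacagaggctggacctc
Gla, chrX:134601174-134601252, minus strand: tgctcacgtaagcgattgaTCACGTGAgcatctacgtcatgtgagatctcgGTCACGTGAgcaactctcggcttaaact

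The arrays also differed within the groups. GFP negative replicate 3 differed from the other GFP negative arrays. Its score on the second principal component (36.3% of the variance over tested genes) was 36.8, and theirs were −31.9 and −33.8. The GFP positive arrays scored 21.8, 9.49 and −2.32 there, between these. On the first component (44.2%) replicate 3 scored 45.7, the other GFP negative arrays 9.92 and 23.5, and the GFP positive arrays −20.1, −22.5 and −36.4. In the Gapdh and beta-actin controls, 3′ signal exceeded 5′ signal by 2.49 log2 units on GFP negative replicate 2 and by 1.51 to 1.82 on the others. All 12 listed markers of neural stem cells and astrocytes were bright enough to test, and 4 of them (33.3%; 2.35% of all genes) were higher in GFP positive cells by limma. These were the astrocyte genes Gfap (1.50, adjusted p = 0.0188), Aqp4 (1.48, 0.0116) and Slc1a2 (1.22, 0.0163) and the stem cell regulator Nr2e1 (0.86, 0.0308), while Nes, nestin, differed by −0.49 (0.364). The summed signal of the 12, most of it from the brightest, was 16.8 to 16.9 in the GFP positive group and 16.5 to 16.6 in the GFP negative group. All 11 mitosis genes tested were lower in GFP positive cells (limma adjusted p under 0.05, 2.11% of all genes). The part of these markers in the lysosomal values was not tested. Microglia and macrophages, which are rich in lysosomes, left little signal: 14 of 16 markers stayed under log2 4 on all 6 arrays, among them Cx3cr1, Aif1, C1qa, Tyrobp and P2ry12. The exceptions were Csf1r, at 4.42 to 4.51, and Cd68, a lysosomal membrane protein, at 6.44 to 7.30. The summed signal of the 16 markers ran from 7.79 to 7.98 over the GFP positive samples, and from 7.60 to 7.98 over the negative ones, so it overlapped. Cd68, the brightest marker, made up the largest part of this sum, so it says little about the others. Fewer cells of a type and less RNA per cell cannot be told apart in such samples.

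No lysosome or autophagy gene passed the test between GFP positive and GFP negative cells. At a limma adjusted p under 0.05, 0 of 46 were higher and 0 lower, where 2.35% and 2.11% of all tested genes were (4.46% in either direction). Without adjustment, 5 members had a limma p under 0.05 and were higher (10.9%; 9.92% of all tested genes) and 1 lower (2.17%; 8.28%). The groups did not overlap for 10 genes that were higher (21.7%; 13.8% of all) and 1 that was lower (2.17%; 11.5% of all). By sign, 40 of 46 differences were positive, that is toward GFP positive cells, against 50.5% of all tested genes. Their median was 0.19 on the log2 scale, against 0.00 for all. The count was 39 after quantile normalization, 40 after a common median and 33 to 42 with 1 array left out. By role the median difference was 0.38 for proteases, 0.34 for autophagy factors, 0.29 for lipid hydrolases and 0.18 for glycosidases and sulfatases. It was 0.15 for luminal helper proteins, 0.10 for membrane proteins and 0.05 for the pump. The members were chosen with earlier results of these data known, so these counts are given without a test of the list.

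**Figure D1:**
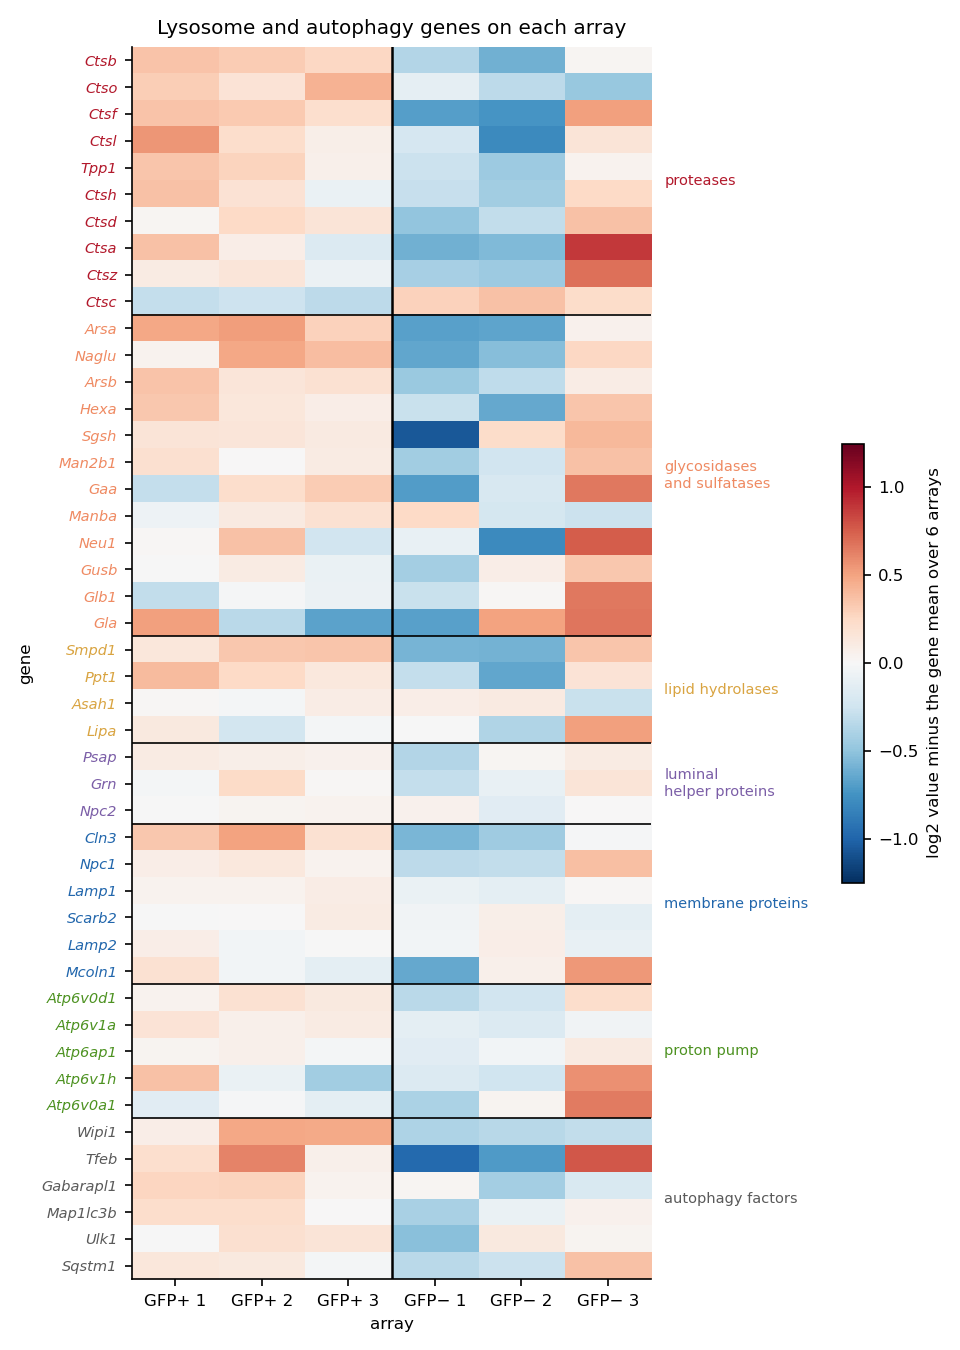
Log2 value of each of 46 genes on each of 6 arrays, minus that gene's mean over the arrays, grouped by role (gene labels coloured by role, red above and blue below the gene's mean). GFP negative replicates 1 and 2 are mostly below the mean (medians −0.34 and −0.26) and GFP negative replicate 3 mostly above it (0.22), while the GFP positive arrays lie between 0.07 and 0.15.

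The 3 GFP negative arrays were spread widely on these genes. With each gene's mean set to 0, GFP positive replicates 1 to 3 had medians of 0.13, 0.15 and 0.07 over the 46 genes. The GFP negative replicates had medians of −0.34, −0.26 and 0.22; over all tested genes they had −0.08, −0.01 and 0.11. GFP negative replicates 1 and 2 thus lay below the GFP positive arrays and replicate 3 above them. The SD between replicates was larger in GFP negative than in GFP positive cells for 45 of 46 genes (80.2% of all tested genes), with a median of 0.39 against 0.12. GFP negative replicate 3 was the highest of the 3 GFP negative arrays for 37 genes (80.4%; 51.2% of all tested genes) and the highest of all 6 arrays for 22 (47.8%; 37.1%). For 29 genes both other GFP negative arrays lay below every GFP positive array (63%; 28% of all). Among these 29, GFP negative replicate 3 lay above all GFP positive arrays for 12 genes (26.1% of the 46, against 8.93% of all tested genes). It lay within their range for 7 (15.2% against 5.23%) and below them for 10 (21.7% against 13.8%).

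Left out in turn, 5 of the 6 arrays left the counts at 0 higher and 0 lower. Without GFP negative replicate 3, which leaves 2 arrays in that group, 9 of 46 genes were higher (19.6%; 7.61% of all tested genes) and 1 lower (2.17%; 4.21%). The 9 were Arsa, Ctsf, Smpd1, Tfeb, Cln3, Ctsb, Naglu, Ppt1 and Arsb, and the lower one was Ctsc. Of the 9, 7 are hydrolases, 1 is a membrane protein and 1 an autophagy factor. In that fit 42 of 46 differences were positive (91.3%; 55.3% of all tested genes) with a median of 0.40, against 0.05 over all genes. The 18S ribosomal RNA signal was 14.0 and 14.1 on GFP negative replicates 1 and 2, 13.4 on replicate 3 and 12.8 to 13.0 on the GFP positive arrays. By 18S, replicate 3 thus lay between the GFP positive arrays and the other GFP negative ones. On the lysosomal genes its median lay above the GFP positive arrays. The 3′ to 5′ ratio of the controls and the mitosis genes also varied among the GFP negative arrays; on replicates 1, 2 and 3 the mitosis list lay at 0.61, 0.91 and 1.40 relative to each gene's mean. Their part in the lysosomal values was not tested.

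**Figure D2:**
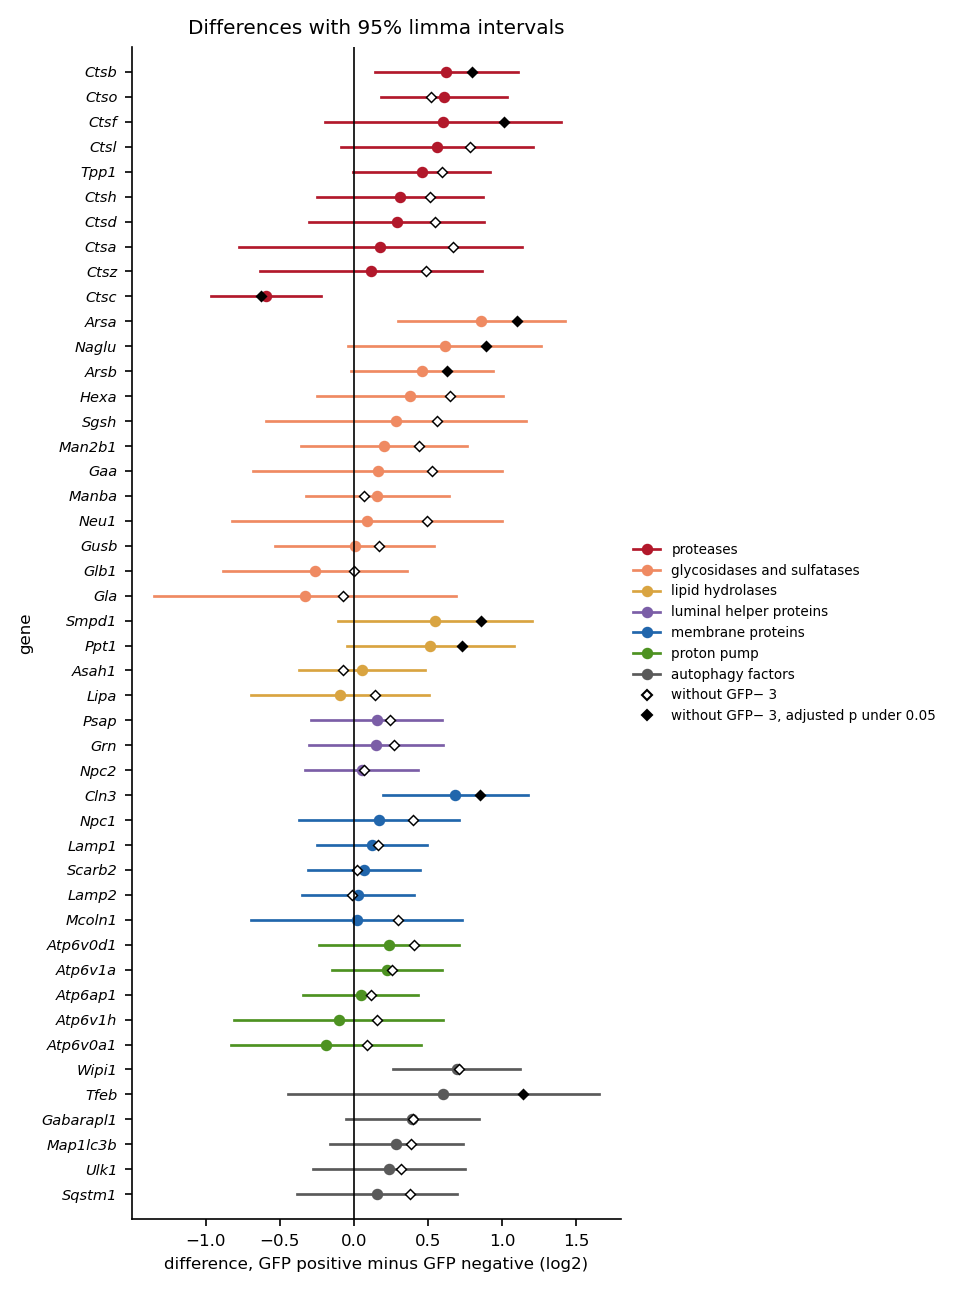
Difference between GFP positive and GFP negative cells on the log2 scale for 46 genes (circles, coloured by role) with the 95% limma interval (lines), and the difference without GFP negative replicate 3 (diamonds, filled where the adjusted p was under 0.05). With 6 arrays no gene passed; Arsa has the largest difference, 0.86, and Ctsc the most negative, −0.59.

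Proteases made up the role with the largest median, and 9 of 10 were positive. Ctsb, cathepsin B, a cysteine protease, measured 12.84, 12.80 and 12.74 in GFP positive cells against 12.12, 11.88 and 12.51 in GFP negative cells. All GFP positive values lay above all GFP negative ones, and GFP negative replicate 3 came nearest. The difference was 0.62 (SE 0.21, 95% interval 0.14 to 1.11), or 1.54-fold, and did not pass (limma adjusted p = 0.158). On dimmer probe sets of Ctsb above the filter, replicate 3 was the highest, the middle or the lowest GFP negative array. Ctso, another cysteine cathepsin, read 10.74, 10.60 and 10.86 against 10.32, 10.10 and 9.96. Here GFP negative replicate 3 was the lowest array, and the groups again did not overlap (difference 0.61, SE 0.18, limma adjusted p = 0.122; 0.52 and 0.0876 without that array). Tpp1, tripeptidyl peptidase, whose loss causes a neuronal ceroid lipofuscinosis, measured 12.21, 12.14 and 11.92 against 11.59, 11.40 and 11.90, barely apart at GFP negative replicate 3. Its difference was 0.46 (limma adjusted p = 0.284). The other probe set of Tpp1, at 11.62, 11.78 and 11.87 against 11.01, 11.00 and 11.01, had no raised value on replicate 3.

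Ctsc went the other way. This protease, dipeptidyl peptidase 1, is known for activating serine proteases of immune cells. It measured 10.44, 10.48 and 10.41 in GFP positive and 11.03, 11.11 and 10.97 in GFP negative cells. All 3 GFP negative arrays lay close together and above the others, GFP negative replicate 3 included. The difference of −0.59 (SE 0.16, 95% interval −0.96 to −0.22), or 1.51-fold lower, missed the threshold (limma adjusted p = 0.0928) and passed without GFP negative replicate 3 (−0.62, 0.039). It also passed where no filter on low values was used (−0.59, 0.0238). The difference was the same there and its SE was 0.056 instead of 0.16, so the pass came from the smaller SE. In that setting 1.06% of 18193 genes were higher and 0.555% lower, and of the members 0 were higher and 1 lower. The 2 dimmer probe sets of Ctsc above the filter, with means under log2 6, differed by 0.09 and −0.27 and had overlapping groups.

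In other cathepsins GFP negative replicate 3 was the highest array of all 6. Ctsf, a cysteine protease, read 8.57, 8.54 and 8.43 in GFP positive cells and 7.53, 7.48 and 8.73 in GFP negative cells. The other 2 GFP negative arrays were the lowest, about 1 log2 unit below the GFP positive ones. The difference was 0.60 with all arrays (SE 0.34, limma adjusted p = 0.427) and 1.01 without replicate 3 (SE 0.14, 0.0121). Ctsd, cathepsin D, the main aspartic protease of lysosomes, had the same order: 12.44, 12.67 and 12.58 against 11.93, 12.11 and 12.79 (difference 0.29, limma adjusted p = 0.636). Ctsa, which also protects other lysosomal enzymes, reached 12.05 on GFP negative replicate 3 against 10.57 and 10.62 on the others. Ctsz reached 10.76 there, against 9.66 and 9.62. The remaining proteases, Ctsl and Ctsh, differed by 0.56 and 0.31 with overlapping groups on their brightest probe sets. A dimmer probe set of Ctsl read 7.10, 7.37 and 7.17 against 6.34, 6.85 and 6.01, without overlap. GFP negative replicate 3 was the lowest array there (0.82, limma adjusted p = 0.162 with each probe set fitted on its own). The dimmer probe set of Ctsh differed by 0.18 with overlap.

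Among enzymes that act on sugars and sulfates, Arsa had the largest difference of all 46 genes. Arsa, arylsulfatase A, removes sulfate from the myelin lipid sulfatide. It measured 8.36, 8.40 and 8.17 in GFP positive and 7.20, 7.22 and 7.93 in GFP negative cells. GFP negative replicate 3 lay between the groups, so that they did not overlap. The difference was 0.86 (SE 0.24, 95% interval 0.30 to 1.42), or 1.81-fold, with a limma adjusted p of 0.104, and 1.10 without that array (limma adjusted p = 0.011). Arsb, arylsulfatase B, which acts on dermatan sulfate, read 9.69, 9.48 and 9.51 against 8.86, 9.01 and 9.42, apart by 0.46 (limma adjusted p = 0.294).

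Naglu, an enzyme of heparan sulfate breakdown, measured 7.28, 7.72 and 7.62 against 6.58, 6.70 and 7.49, a difference of 0.61 (limma adjusted p = 0.309). Hexa, the alpha subunit of hexosaminidase, read 12.27, 12.08 and 12.01 against 11.65, 11.30 and 12.28, with the highest value again on GFP negative replicate 3 (difference 0.38, limma adjusted p = 0.544). Of the 12 enzymes of this role 10 were positive and 2 negative. Glb1, beta-galactosidase, differed by −0.26 and Gla, alpha-galactosidase A, by −0.33, with 95% intervals of −0.88 to 0.36 and −1.35 to 0.69. Sgsh, Man2b1, Gaa, Manba, Neu1 and Gusb lay between 0.01 and 0.29, each with overlapping groups.

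No lipid hydrolase passed the test with all arrays. Smpd1, acid sphingomyelinase, measured 10.48, 10.67 and 10.68 in GFP positive and 9.76, 9.75 and 10.68 in GFP negative cells, where GFP negative replicate 3 matched the GFP positive arrays. Ppt1, which removes palmitate from proteins, read 10.09, 9.94 and 9.83 against 9.40, 9.05 and 9.87. Their differences were 0.55 and 0.52 (limma adjusted p = 0.368 and 0.322), and 0.86 and 0.73 without GFP negative replicate 3 (limma adjusted p = 0.0198 and 0.0463). The value of Ppt1 depended on the probe set: 3 of its 5 were negative, and the average over all 5 differed by −0.037. Asah1, acid ceramidase, and Lipa, the acid lipase that frees cholesterol from its esters, differed by 0.06 and −0.09, with 95% intervals of −0.37 to 0.48 and −0.69 to 0.51. On their brightest probe sets the luminal helpers lay close to 0 as well: progranulin (Grn) differed by 0.15 and Npc2, a cholesterol carrier of the lumen, by 0.05. Psap, the precursor of the saposins, read 13.27, 13.24 and 13.21 against 12.80, 13.19 and 13.27, with overlap (0.15, 95% interval −0.29 to 0.60, limma adjusted p = 0.751). A dimmer probe set of Psap differed by 0.67 and separated the groups, and no probe set of Grn or Npc2 above the filter did.

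The abundant membrane proteins Lamp1, Lamp2 and Scarb2 had small differences on their brightest probe sets. Lamp1, the most used lysosome marker, measured 13.37, 13.37 and 13.42 in GFP positive and 13.25, 13.20 and 13.34 in GFP negative cells. The groups did not overlap, yet the difference was only 0.12 (95% interval −0.25 to 0.49, limma adjusted p = 0.764), or 1.09-fold. Lamp2, its partner and a receptor of chaperone-mediated autophagy, read 14.74, 14.63 and 14.65 against 14.63, 14.74 and 14.57, with overlapping groups (0.03, 95% interval −0.35 to 0.40; the sign changed in 4 of 16 alternatives). Its brightest probe set carries a cross-hybridising suffix; 2 others, at 0.47 and 0.50, separated the groups. Scarb2, which carries glucocerebrosidase to lysosomes, differed by 0.07 (95% interval −0.31 to 0.45).

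Cln3 was the exception in this role. It is a membrane protein lost in juvenile Batten disease. It measured 8.79, 8.96 and 8.65 in GFP positive and 7.89, 8.01 and 8.45 in GFP negative cells, without overlap. The difference was 0.69 (SE 0.21, 95% interval 0.19 to 1.18), or 1.61-fold, with a limma adjusted p of 0.131, and 0.85 without GFP negative replicate 3 (0.0255). A dimmer probe set of Cln3 differed by 0.07. Npc1, the cholesterol exporter, and Mcoln1, a calcium channel of lysosomes, differed by 0.17 and 0.02, both highest on GFP negative replicate 3 (11.16 and 10.65).

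The proton pump had the smallest median difference of the 7 roles with the brightest probe sets, 0.05. It was not the smallest with averaged probe sets (0.11, against 0.009 for lipid hydrolases) or without cross-hybridising suffixes (0.061, against 0.052 for luminal helpers). Atp6v1a, the catalytic subunit, was the one pump gene whose groups did not overlap, at 11.32, 11.21 and 11.25 against 11.02, 10.98 and 11.10, with a difference of 0.22 (SE 0.16, limma adjusted p = 0.542). Atp6v0d1, of the membrane sector, read 11.51, 11.65 and 11.59 against 11.13, 11.23 and 11.68 (0.24, limma adjusted p = 0.622). The accessory protein Atp6ap1 differed by 0.05, and Atp6v1h and Atp6v0a1 by −0.10 and −0.19. GFP negative replicate 3 was the highest GFP negative array for all 5 pump genes and the highest of 6 for 4 of them.

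All 6 autophagy factors were positive. Wipi1, which binds the lipid PI3P where autophagosomes form, had the smallest adjusted p of the 46 genes. It measured 10.19, 10.58 and 10.57 in GFP positive and 9.71, 9.76 and 9.79 in GFP negative cells. The 3 GFP negative arrays were within 0.1 of each other, GFP negative replicate 3 included, and the groups did not overlap. The difference was 0.69 (SE 0.18, 95% interval 0.27 to 1.12), or 1.62-fold, just short of the threshold (limma adjusted p = 0.0869; 0.0517 without GFP negative replicate 3). This brightest probe set of Wipi1 carries a cross-hybridising suffix. The next brightest read 7.44, 7.05 and 6.57 against 5.38, 4.36 and 6.98. There the groups overlapped, and GFP negative replicate 3 was the highest GFP negative array. Of the 5 probe sets of Wipi1 above the filter, 3 separated the groups.

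The ATG8 proteins that coat autophagosomes lay higher by less. Gabarapl1 read 12.29, 12.29 and 12.06 against 12.04, 11.59 and 11.82, barely without overlap (0.40, limma adjusted p = 0.342). Map1lc3b, LC3B, read 13.07, 13.07 and 12.85 against 12.45, 12.77 and 12.91, with overlap (0.29, limma adjusted p = 0.516). Sqstm1, the cargo receptor p62, and Ulk1, the kinase that starts autophagy, differed by 0.16 and 0.24. Tfeb itself was dim and varied widely in GFP negative cells: 5.32, 5.73 and 5.17 against 4.13, 4.40 and 5.89. GFP negative replicate 3 had the highest value. Its difference was 0.60 with all arrays (95% interval −0.45 to 1.65, limma adjusted p = 0.566) and 1.14 without that array (0.0238). The second value sets GFP positive cells against 2 arrays just above the log2 4 filter, so its size depends on the background estimate and is not given as a fold.

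**Figure D3:**
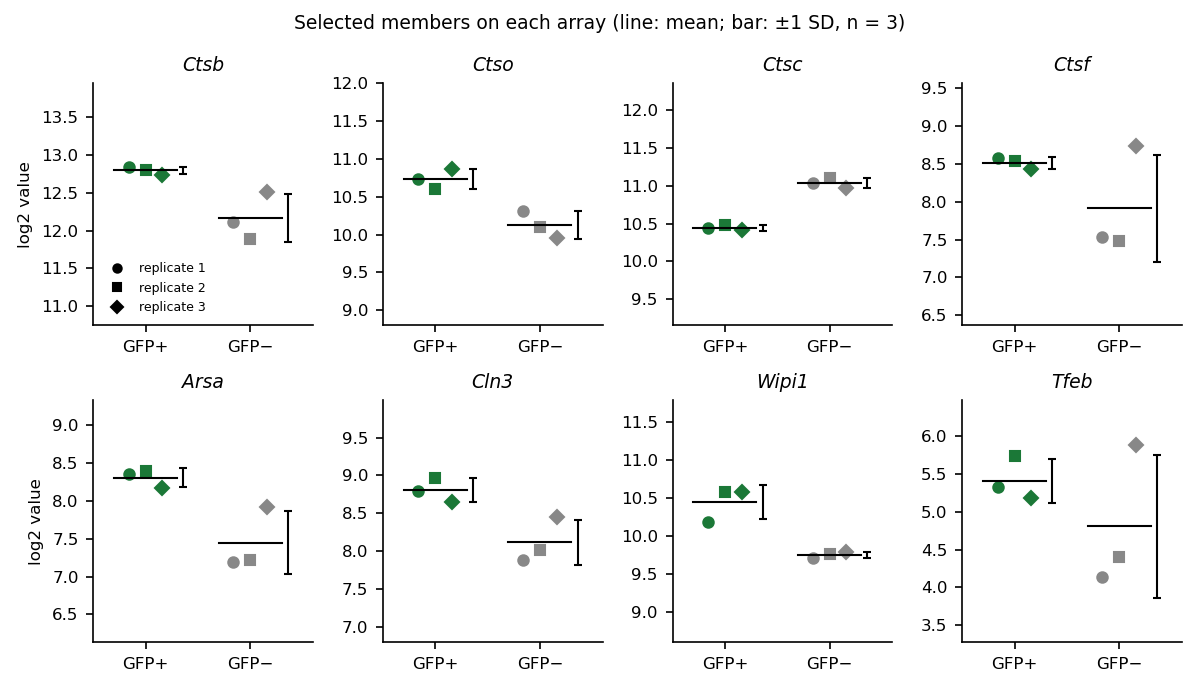
Log2 value of 8 selected genes on each array, by group (symbols: replicates 1, 2 and 3; horizontal line: mean; bar: 1 SD, n = 3; every panel spans the same log2 range). On the brightest probe sets, which are shown, Ctso, Ctsc and Wipi1 keep all 3 GFP negative arrays on one side, while in Ctsf and Tfeb GFP negative replicate 3 is the highest of the 6 arrays.

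Genes with and without the TFEB motif covered overlapping ranges of difference, which is given as a description. The 11 genes with GTCACGTG had a median difference of 0.24 and a range of −0.33 to 0.86, and the other 30 genes with a promoter window and a probe set a median of 0.18 and a range of −0.59 to 0.69. Arsa, at 0.86, carries the motif once in the window shown above. Lamp1, at 0.12, carries 4 copies of CACGTG before its start site, Mcoln1, at 0.02, carries 2, and Gla, at −0.33, also carries 2. Wipi1, at 0.69, had none in its window.

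Several probe sets of 1 gene allowed a check on the choice of the brightest. Of 25 genes with more than 1 probe set above the filter, 18 had differences of 1 sign only. Ctsb had 4, all without overlap between the groups; the brightest differed least, by 0.62, and the others by 1.10, 1.15 and 1.17. Wipi1 had 5, at 0.64 to 1.45, of which 3 separated the groups. In a fit of each probe set on its own, chosen after seeing the data, 1 probe set of Ctsb (1.10, limma adjusted p = 0.0293) and 1 of Wipi1 (1.02, 0.0398) passed, where 2.1% of genes had a higher and 1.65% a lower probe set. With the probe sets of a gene averaged both passed too, Ctsb by 1.01 (limma adjusted p = 0.0252) and Wipi1 by 0.98 (0.0422), where 3.11% of genes were higher and 2.53% lower; they were the 2 members called. With arrays weighted by their fit, 10 of 46 members were higher, against 9.98% of all tested genes, and 1 of 46, Ctsc, was lower, against 5.73%.

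Map1lc3b ran from 0.29 to 0.75 over 4 probe sets, Tpp1 from 0.46 to 0.75 and Psap from 0.15 to 0.67 over 2 each, all positive. The signs were mixed for Ppt1 (−0.64 to 0.59 over 5), Ctsc, Sqstm1, Atp6v0a1, Mcoln1, Grn and Gaa. Which transcripts each probe set reads was not analysed here.

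**Figure D4:**
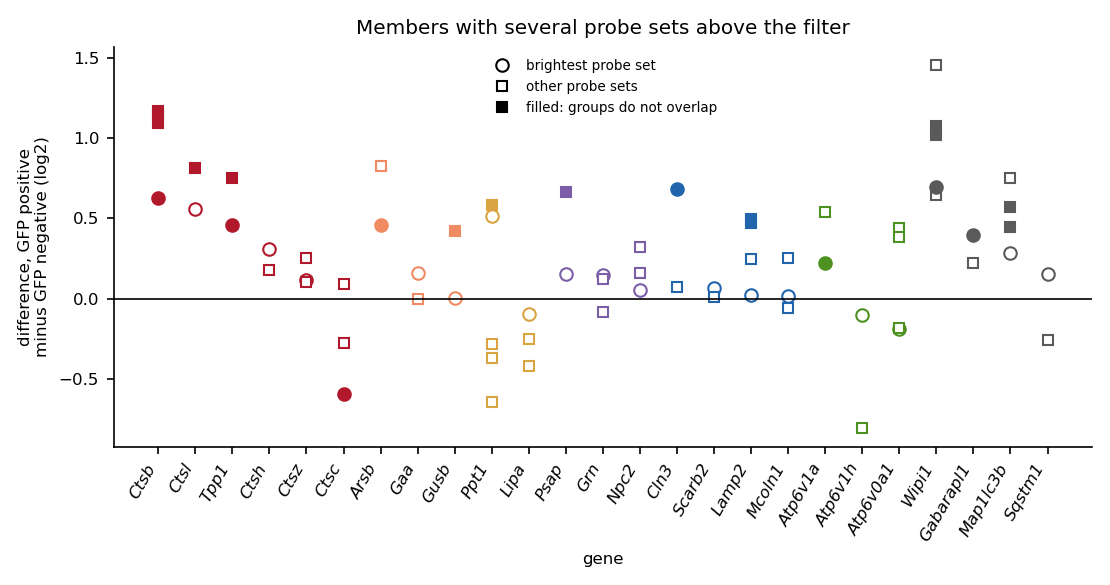
Difference between GFP positive and GFP negative cells on the log2 scale for each probe set above the filter, for the 25 genes that had more than 1 (circle: brightest; squares: others; filled where the groups do not overlap). All probe sets of Ctsb and Wipi1 lie above 0.6, while those of Ppt1 and Ctsc fall on both sides of 0.

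Other genes of the pathway, from 4 lists of 131 symbols, were read the same way: 113 were tested and 0 were higher or lower at a limma adjusted p under 0.05. Without adjustment, 8 with a limma p under 0.05 were higher (7.08%; 9.92% of all tested genes) and 1 lower (0.885%; 8.28%). Of 30 tested lysosomal genes 22 were positive, with a median of 0.11. The 2 brightest were Gm2a, the activator of ganglioside breakdown (0.26, limma adjusted p = 0.458), and Laptm4b (−0.20, 0.656). Lgmn, the protease legumain, had the largest difference, at 8.90, 8.68 and 8.42 against 7.97, 7.58 and 8.11 (0.78, limma adjusted p = 0.106), and passed without GFP negative replicate 3 (0.89, 0.0441). Igf2r, the receptor that carries hydrolases to lysosomes, was higher on all 3 GFP negative arrays, at 10.01, 9.84 and 9.62 against 9.06, 9.32 and 9.48 (−0.53, limma adjusted p = 0.204).

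Of 13 further pump genes 10 were positive, with a median of 0.13. The 2 brightest, Atp6v1g1 and Atp6ap2, differed by 0.15 and 0.04, and Atp6v0a2 by 0.58 (limma adjusted p = 0.194; 0.76 and 0.026 without GFP negative replicate 3). Of 39 further autophagy factors 32 were positive (82.1%), with a median of 0.20; the brightest were Nbr1, a cargo receptor (0.26), and Vmp1 (0.13). Bnip3, a receptor of mitochondrial autophagy, read 9.93, 10.05 and 9.95 against 9.18, 9.43 and 9.48, without overlap (0.61, limma adjusted p = 0.104). Ulk2 (0.64), Calcoco1 (0.59) and Fyco1 (0.50) also had an unadjusted p under 0.05.

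The nutrient-sensing genes around the kinase mTORC1 and the relatives of TFEB had no common direction, with 18 of 31 positive and a median of 0.07. The brightest were Lamtor1, an anchor of mTORC1 at the lysosome (−0.14), and Sesn3 (0.29). The 2 genes with an unadjusted p under 0.05 were Flcn, folliculin, at 0.74 (limma adjusted p = 0.21), and its partner Rragd, a Rag GTPase, at 0.63 (0.159). Rragd measured 11.20, 11.19 and 11.18 against 10.80, 10.70 and 10.19, so that GFP negative replicate 3 was here the lowest array. Genes of this paragraph and the 2 before it with an unadjusted p under 0.05 were named after their values were seen. Thrsp, the gene of the reporter, differed by 0.65 (limma adjusted p = 0.0893). It measured 14.32, 14.20 and 14.13 in GFP positive and 13.58, 13.41 and 13.71 in GFP negative cells. Its transcript was thus bright in both groups, the GFP negative one included.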

How the data were processed

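Total RNA of 6 samples was hybridised to 1-colour Affymetrix arrays. The deposited values are log2 signals; the submitters' processing notes name GCRMA, without a version, as the authors' tool. This method takes off an estimated background and brings arrays to a common distribution, so folds of dim genes depend on that estimate and a shift of all genes would not be seen. Gene names came from the annotation of the array (34945 of 45101 probe sets named 1 gene). The 2 groups were fitted over 10531 genes by limma 3.58.1 (lmFit, eBayes; R 4.3.3) with Benjamini-Hochberg adjustment, threshold 0.05; differences are GFP positive minus GFP negative. In simulated data for this comparison of 10531 genes, 50 genes were altered at each size. The share of these recovered was 0% at a log2 change of 0.5, 18% at 1, 76% at 2 and 96% at 3. Changes of the size seen here were thus mostly missed in the simulation. In the data 470 genes passed, and the adjustment depends on how many genes change, so the simulated shares need not hold there. The number of arrays limits the precision; an exact permutation test of 3 against 3 cannot go below p = 0.1.

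Members, roles and lists were chosen with earlier results of these data known. The genes to be named were any member past the threshold or left out, Thrsp, and, per role, the largest difference and the brightest gene, the markers Tfeb, Lamp1, Lamp2, Ctsd, Sqstm1 and Map1lc3b, and the 2 brightest genes of each pathway list; other genes were named after their values were seen. Alternatives were no filter or log2 6, quantile normalization, a common median, averaged probe sets, no cross-hybridising suffixes, trend and robust settings, array weights, a replicate block, the 3′ to 5′ ratio as a covariate and each array left out.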

Additional observations from a re-analysis of the deposited data

How the results depend on the processing

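With all 6 arrays 0 lysosome and autophagy genes were higher and 0 lower (limma). The counts of higher genes became 2 with averaged probe sets and 2 with each probe set tested separately (chosen after seeing the data). With array weights 10 of 46 were higher, against 9.98% of all tested genes. Over the arrays left out in turn the counts of higher genes ran from 0 to 9. The counts of lower genes became 1 with no filter and 1 with array weights, and ran from 0 to 1. In the pathway lists, at 0 otherwise, array weights gave 7 higher (6.19% of 113; 9.98% of all tested genes) and 1 lower (0.885%; 5.73%), and the fit without GFP negative replicate 3 gave 5 higher (4.42%; 7.61%). The median of membrane proteins moved from 0.10 to 0.21 without cross-hybridising suffixes and was 0.055 at the lowest and 0.23 at the highest with 1 array left out. Other medians moved by less than the spread between replicates, which is wide in GFP negative cells, yet some by over 1.5 times: lipid hydrolases from 0.29 to 0.009 with averaged probe sets, luminal helpers from 0.15 to 0.052 without suffixes, and glycosidases and sulfatases from 0.18 to 0.47 with array weights and to 0.051 and 0.51 without GFP negative replicates 1 and 3. The pump median was −0.01 without GFP negative replicate 1 and 0.16 without replicate 3. With the replicate block 0 genes were higher and 0 lower. Deviations of same-numbered arrays from their group means correlated at −0.25, 0.05 and −0.50 across genes. Such deviations sum to 0 within each group of 3, so these values cannot show whether same-numbered arrays are pairs. The labels do not say so either. Over all tested genes the block left 19 higher and 8 lower of 248 and 222. The 3′ to 5′ covariate left 9 and 0, array weights gave 1051 and 603, no filter 193 and 101, and leaving out 1 array 1 to 801 and 0 to 443.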
